A study of Mus musculus with 6 samples.

Results

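The circadian clock genes of the mouse lung were examined in pups in which human SRY had been switched on. They are Arntl, Clock, Per1, Per2, Per3, Cry1, Cry2, Nr1d1, Nr1d2 and Dbp, 10 genes chosen by name, and every probe of the array that carries 1 of these symbols was taken whatever its value. The array has 16 such probes among 25697 probes for 18138 symbols. Of these, 13 probes for 9 genes were detected on enough arrays to be tested, where detected means brighter than nearly all negative control probes of the same array. The other 3 probes were detected on none of the arrays. They are the only probe for Cry1 (ILMN_2618668), 1 of 3 probes for Clock (ILMN_2589603) and 1 of 2 for Nr1d2 (ILMN_2602387), so nothing is reported for Cry1.

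All mice were males of postnatal day 6 (P6), of the strain labelled FVB and given as FVB/N in the study's methods, and total lung RNA of each was read on 1 Illumina MouseRef-8 array. The hSRY-ON group has 3 mice with a single-copy human SRY transgene at the H11 locus of chromosome 11, driven by the broadly active CAG promoter and recombined at the 1-cell stage by Cre recombinase left in the egg by a Ddx4-Cre mother; the pups used for arrays did not inherit Ddx4-Cre. The hSRY-OFF group has 3 mice and the name stands for the transgene without recombination, in which a DsRed2 marker is read in place of SRY. The study also uses littermates without the transgene as controls, so the genotype of the hSRY-OFF mice rests on their label. The hour of tissue collection is not given in the sources used here. The array holds no probe for human SRY.

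The mammalian clock is a feedback loop that runs in nearly every tissue, the lung included. ARNTL (also called BMAL1) and CLOCK form a dimer that binds E-box sequences and switches on the Per and Cry genes, whose proteins return to the nucleus and block the dimer. The same dimer drives Nr1d1 and Nr1d2, which encode the nuclear receptors REV-ERB alpha and beta that hold Arntl down, and Dbp, a transcription factor that acts on D-box sequences. In adult lung the transcripts of the 2 arms peak at opposite times of day, and Per1 and Per2 can also be raised directly by glucocorticoid hormone or cAMP signalling.

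Per1, Per2, Cry2 and Nr1d1, all on the repressing side of the loop, were higher in hSRY-ON lungs. Arntl, Clock, Per3, Nr1d2 and Dbp did not pass the test. By limma with p-values adjusted over all 13841 tested probes, 6 of the 13 clock probes (46.2%) were called at an adjusted p under 0.05, against 26.9% of all tested probes. All 6 were higher, where 13.6% of all tested probes were called higher and 13.3% lower. No clock probe was called lower by limma, and 1, for Nr1d2, was lower at the unadjusted threshold of 0.05. The 3 hSRY-OFF and 3 hSRY-ON values did not overlap for 9 of the 13 probes (69.2%), against 46.6% of all tested probes. The median change of the clock probes was 0.51 on the log2 scale, and that of all tested probes was -0.03. With so many genes moved in these lungs, the counts describe the clock genes and do not set them apart. Leaving out hSRY-OFF replicate 2 lowered the called clock probes from 6 to 3, all among the 6, and all called probes from 3728 to 1621; leaving out hSRY-OFF replicate 1 left 4 and 1504.

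**Figure D1:**
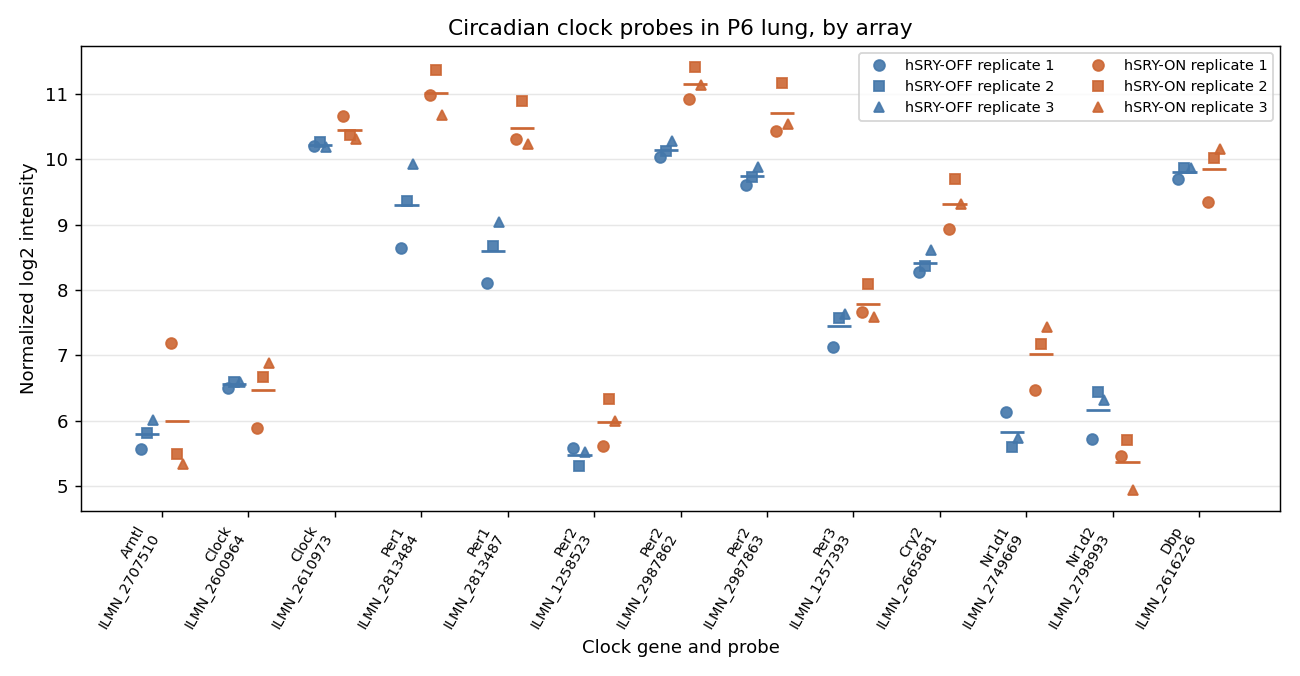
Normalized log2 intensity (vertical axis) of the 13 tested clock probes (horizontal axis), with 1 marker per array, blue for hSRY-OFF and orange for hSRY-ON, and the group mean as a line. The 3 hSRY-ON markers lie above all hSRY-OFF markers for Per1, Per2, Cry2, Nr1d1 and the brighter Clock probe, and below them for Nr1d2; the Arntl probe has 1 hSRY-ON marker at 7.19 far above the other hSRY-ON markers.

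Per1, Cry2, Nr1d1 and Per3 are the tested clock genes whose searched promoters hold an E-box, an E′-box or a D-box. The first 3 genes rose and Per3 did not pass the test. Their promoters are shown. Each is the 250 bases before the start of transcription in the RefSeq annotation of GRCm38.p6, written 5′ to 3′ on the strand of the gene. Capitals mark an E-box (CACGTG) in Per1, an E′-box (CACGTT, here read on the other strand as AACGTG) in Cry2 and Nr1d1, and the D-box (TTATGTAA) matches in Per3. Per1 has another start, whose promoter holds no E-box and is not shown. Cry1, which was not tested, holds an E-box and an E′-box and is not shown either.
Per1, chr11:69098699-69098948, plus strand: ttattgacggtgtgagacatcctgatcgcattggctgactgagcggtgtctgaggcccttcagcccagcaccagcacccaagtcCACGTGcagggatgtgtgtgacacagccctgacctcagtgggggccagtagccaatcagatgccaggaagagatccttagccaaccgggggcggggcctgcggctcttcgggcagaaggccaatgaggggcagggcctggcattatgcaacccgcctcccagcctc
Cry2, chr2:92434070-92434319, minus strand: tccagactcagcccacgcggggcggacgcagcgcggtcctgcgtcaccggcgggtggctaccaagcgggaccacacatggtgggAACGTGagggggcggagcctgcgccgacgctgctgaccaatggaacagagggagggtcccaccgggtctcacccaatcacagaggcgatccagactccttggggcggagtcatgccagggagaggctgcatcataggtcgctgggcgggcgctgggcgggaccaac
Nr1d1, chr11:98775378-98775627, minus strand: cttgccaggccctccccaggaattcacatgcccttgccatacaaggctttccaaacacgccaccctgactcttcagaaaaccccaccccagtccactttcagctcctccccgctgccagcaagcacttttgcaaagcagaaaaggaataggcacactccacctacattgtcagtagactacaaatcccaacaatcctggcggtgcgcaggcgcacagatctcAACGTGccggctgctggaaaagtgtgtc
Per3, chr4:151044666-151044915, minus strand: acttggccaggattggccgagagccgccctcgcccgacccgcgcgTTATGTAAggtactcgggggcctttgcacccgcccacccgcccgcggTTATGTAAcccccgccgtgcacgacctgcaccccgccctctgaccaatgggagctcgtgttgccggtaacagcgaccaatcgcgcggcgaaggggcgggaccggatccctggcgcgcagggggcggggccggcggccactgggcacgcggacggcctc

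With the start counted as base 0, the Per1 E-box spans -166 to -161, the Cry2 E′-box also spans -166 to -161, and the Nr1d1 E′-box spans -28 to -23. The Per3 D-box matches lie at -205 to -198 and at -158 to -151. Windows of 300 bases around the start were given for 9 of the 10 clock genes (13 windows, since some genes have more than 1 start), and both strands were searched. The E-box was in 7.15% of all 32851 promoter windows and in windows of Per1 and Cry1, the E′-box in 4.68% and in windows of Cry1, Cry2 and Nr1d1, and the D-box in 0.938% and in that of Per3. A looser D-box (TTANNTAA), which contains the first form, was in 6% of all windows and again in that of Per3 alone among the clock genes.

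The AGGTCA element, which REV-ERB receptors bind, was in 16.3% of all windows and in 4 clock windows, of Arntl, Clock, Nr1d2 and Per1. The full cAMP response element (TGACGTCA) was in 1.79% of all windows and in no clock window. Its core TGACG, which lies within it, was in 20.8% of all windows and in those of Cry1, Cry2 and both Per1 starts. AGAACA, 1 arm of the element that the glucocorticoid receptor binds, was in 19.0% of all windows and in no clock window. Such matches describe the letters of these windows, and binding was not measured.

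Per1, which encodes a PERIOD repressor, had the largest change of the 13 clock probes, and both of its probes rose. Probe ILMN_2813487 read 8.10, 8.67 and 9.04 on hSRY-OFF replicates 1 to 3 and 10.30, 10.89 and 10.23 on hSRY-ON replicates 1 to 3 (normalized log2 intensity). All hSRY-ON values were above all hSRY-OFF values, and hSRY-OFF replicate 1 was the lowest array. The mean went from 8.60 ± 0.47 to 10.47 ± 0.36 (SD, n = 3 per group), a log2 change of 1.87 (95% interval 1.22 to 2.52) or 3.66-fold, with a limma adjusted p of 0.00496. The deposited intensities of this probe, before any correction, were 421, 515 and 766 in hSRY-OFF and 1249, 2031 and 1411 in hSRY-ON lungs, so the separation was there before processing.

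The other Per1 probe, ILMN_2813484, read 8.64, 9.36 and 9.92 in hSRY-OFF and 10.98, 11.36 and 10.68 in hSRY-ON lungs. The groups again did not overlap, and the 3 hSRY-OFF arrays stood in the same order as on the other probe. Its log2 change was 1.70 (0.92 to 2.48) or 3.25-fold, with a limma adjusted p of 0.0117. Both Per1 probes stayed called in all 16 alternative analyses, with changes from 1.37 to 2.02 for ILMN_2813484 and from 1.56 to 2.09 for ILMN_2813487.

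Per2, the PERIOD protein most needed for a lasting rhythm, is read by 3 probes, of which the 2 brighter ones rose. Probe ILMN_2987862 read 10.03, 10.13 and 10.28 in hSRY-OFF and 10.92, 11.41 and 11.14 in hSRY-ON lungs. The hSRY-OFF arrays lay close together and every hSRY-ON array was clearly above them. The log2 change was 1.01 (0.64 to 1.38) or 2.01-fold, with a limma adjusted p of 0.00582, and it was called in all 16 alternatives.

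Probe ILMN_2987863 gave 9.61, 9.73 and 9.89 in hSRY-OFF and 10.44, 11.17 and 10.54 in hSRY-ON lungs, a log2 change of 0.97 (0.48 to 1.46) with a limma adjusted p of 0.0159. The groups did not overlap, and hSRY-ON replicate 2 was the highest array on both probes. Without hSRY-OFF replicate 1 or 2 this probe missed the threshold (limma adjusted p = 0.0664 and 0.0613). The dim Per2 probe, ILMN_1258523, read 5.59, 5.31 and 5.52 in hSRY-OFF and 5.61, 6.33 and 5.99 in hSRY-ON lungs. Its groups did not overlap, though hSRY-ON replicate 1 was barely above hSRY-OFF replicate 1. The log2 change of 0.51 (0.04 to 0.97) was not called (limma adjusted p = 0.0988), and it was called without hSRY-ON replicate 1, at 0.70 (limma adjusted p = 0.0211).

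Per3, the PERIOD gene that mice can lose with little effect on the rhythm, read 7.13, 7.57 and 7.63 in hSRY-OFF and 7.67, 8.09 and 7.59 in hSRY-ON lungs. The groups overlapped, since hSRY-ON replicate 3 was below hSRY-OFF replicate 3. The log2 change was 0.34 (-0.12 to 0.79; limma adjusted p = 0.238), an interval that includes no change and a rise of up to 1.73-fold.

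Cry2, which encodes a CRYPTOCHROME partner of the PERIOD proteins, rose. It read 8.27, 8.37 and 8.61 in hSRY-OFF and 8.94, 9.69 and 9.31 in hSRY-ON lungs, with no overlap between the groups. The mean went from 8.42 ± 0.17 to 9.32 ± 0.38 (SD, n = 3 per group), a log2 change of 0.90 (0.41 to 1.39) or 1.86-fold, with a limma adjusted p of 0.0203. Without hSRY-OFF replicate 1 or 2 the limma adjusted p was 0.0807 and 0.0755.

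Nr1d1, which encodes REV-ERB alpha, rose as well. Its probe ILMN_2749669 read 6.13, 5.60 and 5.74 in hSRY-OFF and 6.47, 7.17 and 7.44 in hSRY-ON lungs. The groups did not overlap, although hSRY-ON replicate 1 stood only a little above hSRY-OFF replicate 1. The mean went from 5.82 ± 0.28 to 7.02 ± 0.50 (SD, n = 3 per group), a log2 change of 1.20 (0.57 to 1.84) or 2.30-fold, with a limma adjusted p of 0.0182. The call was lost without hSRY-OFF replicate 2 or 3 or hSRY-ON replicate 2 (limma adjusted p = 0.0734, 0.0629 and 0.0602). Without background correction the change of this dim probe was 0.47, still called.

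Nr1d2, which encodes REV-ERB beta and is usually co-regulated with Nr1d1, had the lower of the only 2 fitted values below 0 among the clock probes. Probe ILMN_2798993 read 5.72, 6.44 and 6.31 in hSRY-OFF and 5.46, 5.71 and 4.95 in hSRY-ON lungs. All hSRY-ON values were below all hSRY-OFF values, and the probe was detected on 2 of the 3 hSRY-ON arrays. The log2 change of -0.78 (-1.39 to -0.18) was not called (limma adjusted p = 0.0614). With median normalization in place of quantile normalization it was called, at -0.80 (limma adjusted p = 0.0495).

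Arntl, the gene of the activator BMAL1, was spread too widely in hSRY-ON lungs to give a direction. It read 5.57, 5.82 and 6.01 in hSRY-OFF and 7.19, 5.49 and 5.33 in hSRY-ON lungs. Thus hSRY-ON replicate 1 was the highest of the 6 arrays and the other two hSRY-ON arrays were the lowest. The log2 change was 0.20 (-0.89 to 1.30; limma adjusted p = 0.771) and turned to -0.39 (limma adjusted p = 0.111) without hSRY-ON replicate 1.

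Clock, the partner of ARNTL, did not pass the test on either tested probe. The brighter probe, ILMN_2610973, read 10.20, 10.26 and 10.19 in hSRY-OFF and 10.66, 10.37 and 10.30 in hSRY-ON lungs, so the groups did not overlap. Its log2 change was 0.23 (-0.08 to 0.54; limma adjusted p = 0.236). The dimmer probe, ILMN_2600964, read 6.51, 6.59 and 6.59 in hSRY-OFF and 5.89, 6.66 and 6.88 in hSRY-ON lungs, and here hSRY-ON replicate 1 was the lowest of all arrays. Its log2 change of -0.08 (-0.67 to 0.50; limma adjusted p = 0.824) turned to 0.21 (limma adjusted p = 0.237) without that array.

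Dbp, an output gene that in adult tissues swings widely over the day, hardly differed in mean but spread out in hSRY-ON lungs. It read 9.70, 9.86 and 9.86 in hSRY-OFF and 9.35, 10.02 and 10.16 in hSRY-ON lungs. The lowest and the highest of the 6 values were both hSRY-ON arrays, replicates 1 and 3. The SD was 0.09 in hSRY-OFF and 0.43 in hSRY-ON lungs (n = 3 per group), and the log2 change was 0.04 (-0.47 to 0.55; limma adjusted p = 0.908). Its sign turned without hSRY-OFF replicate 1, hSRY-ON replicate 2 or hSRY-ON replicate 3, with values of -0.01, -0.05 and -0.12.

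**Figure D2:**
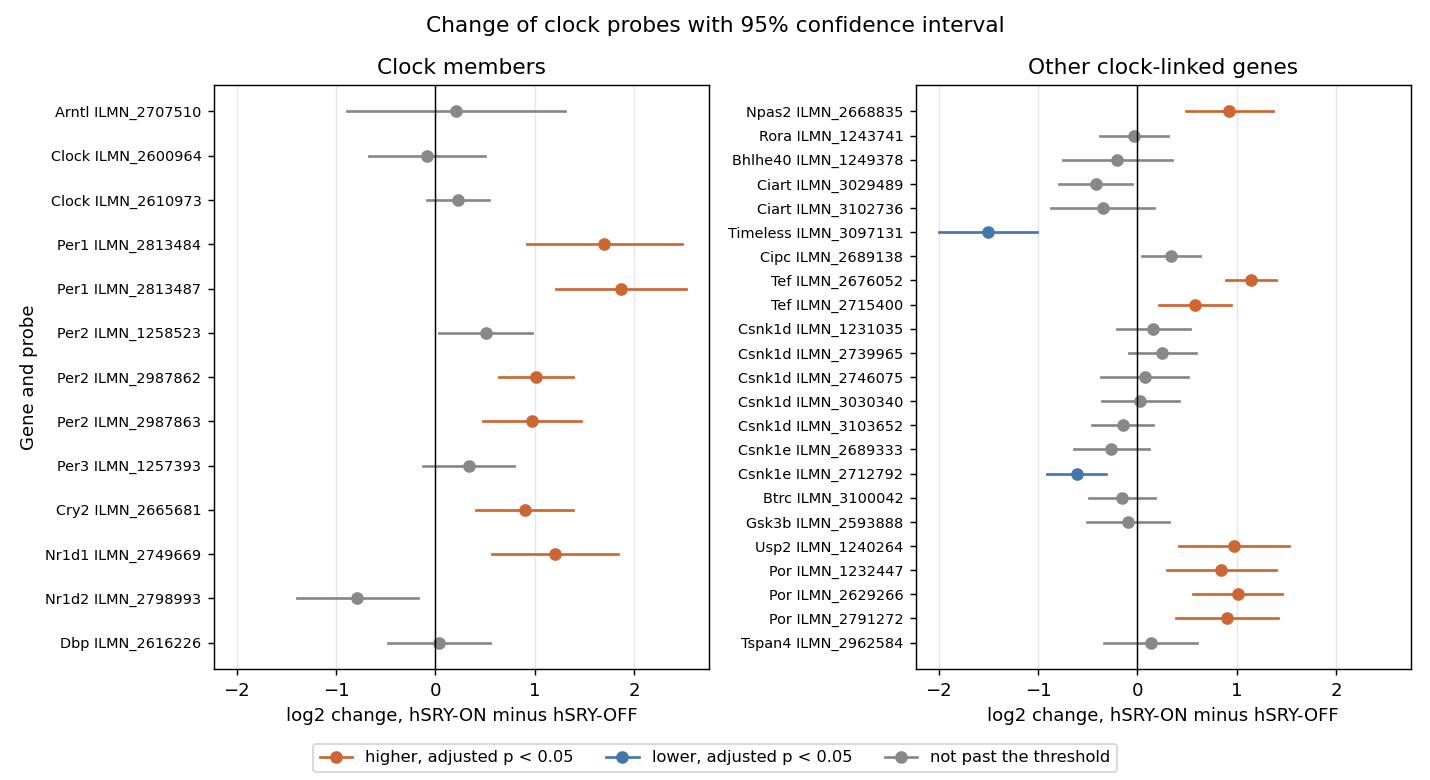
Log2 change, hSRY-ON minus hSRY-OFF (horizontal axis), of the tested clock probes (left) and of probes of other clock-linked genes (right), with 95% intervals from the limma fit; orange is called higher, blue called lower and grey not called. Both Per1 probes lie furthest right among the clock genes at 1.70 and 1.87, while the Dbp and Clock intervals include 0.

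For some pairs of genes, the difference between 2 probes was taken on each array and compared between groups. The 8 pairs were chosen after the values were seen, each a called probe against an uncalled one. No pair includes Arntl or Clock, so the pairs do not cover called against uncalled clock genes in general. Per1 (ILMN_2813484) rose by 1.37 more than Per3 on the log2 scale, and Per2 (ILMN_2987862) by 0.67 more than Per3. Against Dbp, the excess was 1.66 for Per1, 0.97 for Per2, 0.86 for Cry2 and 1.16 for Nr1d1. The changes of the receptor genes Nr1d1 and Nr1d2 differed by 1.99. For each pair the 3 differences of hSRY-ON lungs were all above those of hSRY-OFF lungs. With pairs picked from these same values, that separation largely follows from the choice and is a description only. The two-sided exact permutation test gave p = 0.1 (0.1 also after adjustment over the 8 pairs). This is the smallest it can give with 3 arrays against 3, so this design cannot reach 0.05.

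The clock genes did not stand in the same order on the 3 hSRY-ON arrays. hSRY-ON replicate 1 was the lowest of its group for 7 of the 13 clock probes, among them Dbp, Nr1d1, Cry2 and all Per2 probes, and it was the highest for Arntl and the brighter Clock probe. hSRY-ON replicate 2 was the highest of its group for 8 of the 13, among them every Per probe and Cry2. Over all tested probes, replicate 1 was lowest of the hSRY-ON arrays for 38.7% and replicate 2 highest for 33.7%.

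The Arntl value of hSRY-ON replicate 1 was 1.77 above the mean of the other two hSRY-ON arrays, and 0.267% of all tested probes lay at least as far from that mean in either direction. The same difference was -0.89 for the dimmer Clock probe, -0.83 for Nr1d1, -0.74 for Dbp and -0.56 for Cry2, sizes met or passed by 6.34%, 7.30%, 9.95% and 17.1% of all tested probes. The Per1 probes differed little, by -0.05 and -0.25. Of the tested cell type probes, those highest of all 6 arrays on this array were 3 of 4 for club cells and 3 of 6 for heart muscle. They were 3 of 6 for fibroblasts, 2 of 4 for red cells and 3 of 11 for alveolar type II cells. There was 1 each for alveolar type I cells, ciliated cells, macrophages and skeletal muscle. Endothelial cells had 0 of 6, and lymphocytes, liver and thymocytes had 0. Over all tested probes, replicate 1 was highest of the hSRY-ON arrays for 31.7%. The share highest of all 6 arrays was not counted. The part of these cell types in the Arntl value was not tested.

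Among hSRY-OFF lungs, replicate 1 was the lowest for 10 of the 13 clock probes, whereas it was lowest for 33.5% of all tested probes. Its Per1 probes were 0.67 and 0.50 below the hSRY-OFF mean. Nr1d1 and the dim Per2 probe, by contrast, were highest of the hSRY-OFF lungs on this array.

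**Figure D3:**
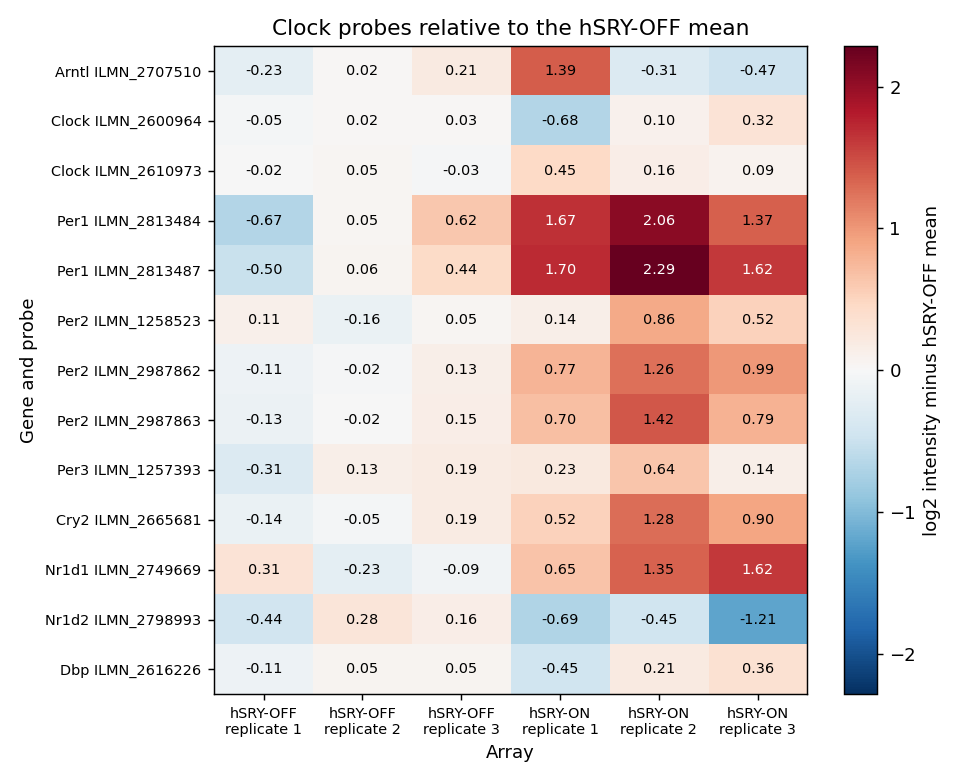
Log2 intensity minus the hSRY-OFF mean, as colour and printed value, for the 13 tested clock probes (rows) on each of the 6 arrays (columns). The Per1, Per2, Cry2 and Nr1d1 rows are above 0 on all hSRY-ON arrays (0.14 to 2.29), and the Arntl row is 1.39 on hSRY-ON replicate 1 against -0.31 and -0.47 on the other two.

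Other genes of the clock pathway were followed in a list of 25, of which 22 are on the array and 15 were tested, with 24 probes. Of these 24 probes, 10 were called (41.7%, against 26.9% of all tested probes), 8 higher (33.3%, against 13.6%) and 2 lower. The median log2 change of the 24 was 0.11. Without hSRY-OFF replicate 1, 2 or 3 the called probes numbered 4, 6 and 5. Calls over all probes fell at the same time, from 3728 to 1504 without replicate 1 and to 1621 without replicate 2. In the activating arm, Npas2, a stand-in for Clock, rose from 6.11 ± 0.32 to 7.03 ± 0.18 (SD, n = 3 per group), a log2 change of 0.93 with a limma adjusted p of 0.0131. It was called in all 16 alternatives, at 0.37 without background correction. Rora, whose receptor competes with REV-ERB, had a fitted change of -0.03 (limma adjusted p = 0.880).

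Tef, a close relative of Dbp that binds the same D-box, rose in a tight pattern. Its probe ILMN_2676052 read 9.08, 9.10 and 9.07 in hSRY-OFF and 10.21, 10.29 and 10.18 in hSRY-ON lungs. Both groups lay within narrow bands more than 1 log2 unit apart. The log2 change was 1.15 (0.90 to 1.40) or 2.21-fold, with a limma adjusted p of 0.00120, and was called in all 16 alternatives. The dim Tef probe ILMN_2715400 rose by 0.58 (limma adjusted p = 0.0322), a call lost in 8 of 16 alternatives (highest limma adjusted p 0.119). Its change was 0.20 without background correction. Tef rose by 1.11 more than Dbp on the log2 scale, 1 of the 8 pairs given above, with the same exact permutation p of 0.1.

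Of genes that carry the clock's output, Usp2, which encodes a deubiquitinase, rose by 0.97, from 6.2, 6.43 and 6.22 in hSRY-OFF to 6.80, 7.74 and 7.22 in hSRY-ON lungs (limma adjusted p = 0.0237). Its groups did not overlap, and the call was lost without any 1 of the 3 hSRY-OFF arrays (limma adjusted p from 0.0631 to 0.0870). Without background correction its change was 0.44. Por, which encodes the electron donor of microsomal P450 enzymes, rose on all 3 probes by 0.85, 1.01 and 0.90 (limma adjusted p = 0.0360, 0.0105 and 0.0234). The dim probe with the change of 1.01 (ILMN_2629266) was called in all 16 alternatives, at 0.34 without background correction; the other two lost the call in 6 and 3 alternatives, among them without any 1 hSRY-OFF array (limma adjusted p up to 0.103).

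Both clock-linked probes that fell are of genes with other tasks as well. Timeless, which also works at the replication fork, fell from 8.85, 8.51 and 8.74 in hSRY-OFF to 7.43, 6.75 and 7.42 in hSRY-ON lungs. The groups were far apart, with a log2 change of -1.50 (-2.0 to -1.01; limma adjusted p = 0.00409), or -0.95 without background correction. Csnk1e, which encodes a casein kinase that phosphorylates PERIOD proteins, fell by 0.61 on one probe (ILMN_2712792; limma adjusted p = 0.0140), and its other probe had a fitted change of -0.26 (limma adjusted p = 0.266). The Csnk1e call was lost without hSRY-OFF replicate 1 or 2 (limma adjusted p = 0.0511 and 0.0658). None of the 5 probes of its partner kinase Csnk1d was called (fitted changes from -0.15 to 0.25).

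The clock repressors Ciart, Bhlhe40 and Cipc did not pass the test. Ciart, which binds the ARNTL and CLOCK dimer, had fitted changes of -0.42 and -0.35 on its probes (limma adjusted p = 0.0881 and 0.274), Bhlhe40 of -0.20 (0.548) and Cipc of 0.34 (0.0853). E-boxes were present in promoter windows of Ciart and Cipc, and also in those of Tef, which rose, and of Tspan4, which had a fitted change of 0.14 (limma adjusted p = 0.640).

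Since Per1 and Per2 can be induced outside the loop, genes that respond to glucocorticoids and to cAMP were set beside them. Of 9 tested probes for 8 glucocorticoid-responsive genes, 7 were called, all 7 upward (77.8%, against 13.6% of all tested probes called higher), and the median log2 change of the 9 was 1.36. Fkbp5, a co-chaperone of the glucocorticoid receptor, rose from 7.27, 7.39 and 7.0 in hSRY-OFF to 10.07, 10.90 and 9.52 in hSRY-ON lungs, a log2 change of 2.95 (limma adjusted p = 0.00203). Its groups were widely apart, and hSRY-ON replicate 2 was the highest array.

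Klf9 rose by 1.51, Tsc22d3 by 2.04 and 1.36 on its probes, Mt2 by 1.43, Errfi1 by 1.13 and Sgk1 by 0.66 (limma adjusted p from 0.00245 to 0.0390). Without background correction the change of Mt2 was 0.63. Dusp1 had a fitted change of 0.34 (limma adjusted p = 0.497) and Ddit4 of 1.01 (limma adjusted p = 0.109). The call was lost for Klf9 without hSRY-OFF replicate 2 (limma adjusted p = 0.0501), for Sgk1 without hSRY-OFF replicate 1 or 3 (0.0710 and 0.0592), and for Errfi1 in 7 of 16 alternatives (up to 0.129). None of the 7 tested probes of the cAMP-responsive and immediate-early genes (Fos, Junb, Egr1, Crem and Sik1) was called by limma, and 1, for Junb, was past the unadjusted threshold of 0.05. Fos had a wide interval, with 9.20, 9.08 and 6.99 on the hSRY-ON arrays. Hormone levels were not measured, and the part of glucocorticoid-responsive genes in the Per1 and Per2 values was not tested.

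Cell type markers moved along with the clock genes. In bulk RNA, fewer cells of a type and less RNA per cell cannot be told apart. The marker counts that follow stand beside 13.6% of all tested probes called higher and 13.3% called lower. All 5 tested macrophage probes were called higher, with summed deposited intensities of 23959 to 27173 in hSRY-OFF and 33473 to 43296 in hSRY-ON lungs. Of 5 ciliated cell probes 4 were called higher (summed 4022 to 5043 against 6205 to 7536), and of 4 club cell probes 2 were (summed 49362 to 56916 against 68501 to 77401). Alveolar type II probes had 6 of 11 called higher, all for Sftpb, Abca3 and Napsa (summed over the 11 probes 79244 to 93312 against 106011 to 116409). Another 4 had uncalled fitted changes below 0: Sftpc (-0.25), the Lamp3 probes (-0.31 and -0.18) and the dim Abca3 probe (-0.07). None of 4 alveolar type I probes was called by limma.

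Endothelial probes had 3 of 6 called lower (summed 33655 to 40393 in hSRY-OFF against 23838 to 26851 in hSRY-ON lungs), and both tested lymphocyte probes were lower (summed over 3 probes 849 to 974 against 501 to 696). Fibroblast probes were split, with 1 of 6 higher and 1 lower. No red cell or skeletal muscle probe was called by limma, and of heart muscle probes 1 of 6, for Nppa, was higher. All alveolar type II and club cell probes were detected on every array. Apoa1 was the 1 liver gene tested and was called higher. It was detected on 3 hSRY-ON and 0 hSRY-OFF arrays, so it passed the detection filter only through the group where it was higher. The liver genes Alb, Ttr and Fgb and the thymocyte genes Rag1, Dntt and Cd8a were detected on no array. The thymocyte gene Ptcra was detected on 3 hSRY-OFF arrays and 1 hSRY-ON array, with a fitted change of -0.26 (limma adjusted p = 0.451). The part of these cell types in the Per1, Per2, Cry2 and Nr1d1 values was not tested.

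Between 13191 and 14134 probes were detected per array, and the median spread of a tested probe was an SD of 0.22 in hSRY-ON and 0.13 in hSRY-OFF lungs. The study's methods count each array as 1 mouse. Precision is bounded by having 3 arrays a group.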

How the data were processed

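Lung RNA of 6 mice was hybridised to Illumina arrays. The authors deposited, for each probe and array, an intensity on a linear scale (mean bead signal) and a detection p-value, with neither background correction nor normalization between arrays. The software that summarised the beads is not stated. The study used the count-based R package TCC, while the submitters' notes list limma; since the values are intensities, limma 3.58.1 in R 4.3.3 was used.

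As in limma's neqc, the detection p-values supplied the background estimate, 16 was added as an offset, and log2 followed quantile normalization of the arrays. The offset compresses the changes of dim probes. Probes detected (p under 0.05) on 3 or more of 6 arrays were tested with lmFit and eBayes without covariates, two-sided, with Benjamini-Hochberg adjustment over all 13841 kept probes. The fit was tested on simulated data. Groups came from the labels, and no arrays were identical. Same-numbered arrays did not deviate together (r = -0.11, 0.10 and -0.09), so numbers were not used as pairs.

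All probes of the 10 clock genes are reported, as is each gene with a called probe in the clock-linked, glucocorticoid and cAMP lists. Members and lists were chosen with earlier results of these data known. Older symbols were matched through RefSeq synonyms; Nfil3, Lonrf3, Zbtb16 and Cebpd were among those not matched. Some list genes enter the counts but are not reported here. Promoters came from RefSeq (GRCm38.p6), a table with no entry for Per2.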

Additional observations from a re-analysis of the deposited data

How the results depend on the processing

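The count of clock probes called stayed at 6 higher and 0 lower under other offsets, normalizations, detection filters, a variance trend and array weights, except that median normalization added 1 lower call, for Nr1d2. At an adjusted p under 0.01 there were 2 called clock probes, both higher, and 2 called clock-linked probes (1 higher and 1 lower), with 1326 over all probes in place of 3728. Leaving out each array in turn gave 3 to 7 called clock probes (3 to 7 higher), 4 to 10 clock-linked probes (3 to 8 higher and 1 to 2 lower) and 1504 to 4384 over all probes, with fewer arrays in each fit. With a replicate block the counts were 6 clock, 9 clock-linked and 2655 probes in all; the replicate numbers did not pair the arrays. Signs turned, with no call, for Dbp (-0.01 without hSRY-OFF replicate 1, -0.05 without hSRY-ON replicate 2, -0.12 without hSRY-ON replicate 3, at most 0.29, without hSRY-ON replicate 1), for Arntl (-0.39 without hSRY-ON replicate 1, up to 0.54 without hSRY-ON replicate 3) and for the dimmer Clock probe (0.21 without hSRY-ON replicate 1, down to -0.29 without hSRY-ON replicate 3). Both Per1 probes and the Per2 probe ILMN_2987862 kept their calls at the 0.05 threshold in all 16 alternatives. Without background correction the uncalled changes of Per3, the dim Per2 probe and Nr1d2 were 0.20, 0.15 and -0.24. Probes near background, such as those of Nr1d1, Nr1d2 and Arntl, limit what can be said of their size. The cause of these differences was not tested.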
